A study of Mus musculus with 27 samples.

Results

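The 10 genes described here encode lysosomal cathepsins and were taken by gene symbol: Ctsa, Ctsb, Ctsc, Ctsd, Ctsf, Ctsh, Ctsk, Ctsl, Ctss and Ctsz. They are 10 of the 54532 genes in the count table, and all 10 passed the filter on low counts in both experiments. RNA was sequenced from 27 cultures of mixed glia in 9 groups of 3 libraries. Cortical cells came from C57BL/6 mice at postnatal day 3 to 6 and were held for 14 days in vitro, and treated for the last 24 h. Experiment 1 held 15 libraries: untreated, LPS at 100 ng/mL, LPS with bryostatin, LPS with IFNγ, and LPS with IFNγ and bryostatin. Experiment 2 held 12 libraries: untreated, bryostatin alone, IL-4, and IL-4 with bryostatin. Bryostatin was used at 50 nM, and IFNγ and IL-4 at 20 ng/mL each. LPS is a bacterial cell wall lipid sensed by TLR4, IFNγ and IL-4 are cytokines of type 1 and type 2 immunity, and bryostatin-1 modulates protein kinase C, the target named in the series title. IFNγ was given only together with LPS, so its effect was read on top of LPS. No genotype differed between groups.

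Cathepsins are proteases of the lysosome, where they digest proteins delivered by endocytosis, phagocytosis and autophagy. Most are cysteine proteases of the papain family (Ctsb, Ctsc, Ctsf, Ctsh, Ctsk, Ctsl, Ctss, Ctsz), whereas Ctsd is an aspartic protease and Ctsa a serine carboxypeptidase that also protects other lysosomal enzymes. They are made as inactive precursors, reach the lysosome largely through mannose 6-phosphate receptors, work at acid pH and are restrained by cystatins and stefins. In brain, microglia are rich in several of them, and Ctss serves the trimming of the invariant chain in antigen presentation by MHC class II.

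Levels are given as CPM (read counts relative to library size) scaled by library factors, and between genes as RPKM (the same per kilobase), using the gene length in the deposited table. A change is called where the adjusted p of edgeR's quasi-likelihood test over all genes is under 0.05, and a log2 fold change is given with its standard error. Comparisons were made within an experiment. The labels do not say whether replicates were separate cultures or animals, so the spread behind each p-value is that of the libraries and could be technical. In bulk RNA, fewer cells of a type and less RNA per cell cannot be told apart.

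Library totals ranged from 17230058 to 28687281 counts, so 3 counts correspond to 0.105 to 0.174 CPM and each cathepsin was far above that floor in each library, the lowest being Ctsk with 98 counts. Markers of glia were present, whereas Mog (mature oligodendrocytes), Rbfox3 (neurons) and Cldn5 (endothelium) were at or near 0. Other markers listed for these types were detected, so the types were not shown to be absent. The 5 oligodendrocyte markers summed to 165 to 426 CPM per library, the 5 neuronal ones to 178 to 298 and the 5 endothelial ones to 27.1 to 142. The untreated library labelled replicate 1 in each experiment stood apart from its group. Experiment 1 replicate 1 correlated at 0.992 with replicates 2 and 3 of experiment 2, but at 0.959 and 0.96 with its own group, across genes. Experiment 2 replicate 1 correlated at 0.98 and 0.971 with replicates 2 and 3 of experiment 1, and at 0.952 and 0.943 with its own. Sox10, a factor of the oligodendrocyte lineage, followed the same division: 0.161, 33.4 and 30.1 CPM in the untreated libraries of experiment 1 and 39.1, 0.281 and 0.228 in those of experiment 2. In treated libraries Sox10 was at 7.12 to 34.5 CPM in experiment 1 and at 0.0354 to 0.483 in experiment 2. Whether the labels of the untreated replicate 1 libraries were exchanged between the experiments was not tested. The labels were kept, and each pair of groups that includes untreated cultures, and each difference of effects that uses them, is also given without both of these libraries.

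Ctsc was called in 6 of the 8 pairs of groups compared and Ctss in 0, so the stretches before their start sites are shown first, side by side. The sequences are RefSeq promoters on GRCm38.p6, read 5′ to 3′ on the gene's strand, from 250 bases before the start site to 10 bases into the transcript. They lie at chr7:88277835-88278094 (plus strand) for Ctsc and chr3:95526536-95526795 (plus strand) for Ctss. Capitals mark matches, on either strand, to the motifs searched.
Ctsc: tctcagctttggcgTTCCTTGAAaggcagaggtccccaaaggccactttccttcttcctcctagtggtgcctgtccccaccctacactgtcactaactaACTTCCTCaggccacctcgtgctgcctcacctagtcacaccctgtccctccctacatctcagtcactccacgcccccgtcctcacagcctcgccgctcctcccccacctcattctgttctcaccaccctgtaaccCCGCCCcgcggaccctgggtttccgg
Ctss: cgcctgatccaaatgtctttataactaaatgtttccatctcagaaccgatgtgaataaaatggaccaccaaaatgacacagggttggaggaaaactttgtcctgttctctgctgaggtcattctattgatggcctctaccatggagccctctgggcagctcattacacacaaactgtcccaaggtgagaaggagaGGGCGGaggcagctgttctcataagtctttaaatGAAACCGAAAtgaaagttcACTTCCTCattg
The 9 motifs were TCACGTG and TCANGTGA (forms bound by the MiT/TFE factors of lysosomal genes), the E-box CACGTG that lies inside TCACGTG, the IRF element (GAAA, any 2 bases, GAAA), TTCNNNGAA (bound by STATs), GAGGAAGT (bound by PU.1), GGGCGG (bound by Sp factors), the κB site (bound by NF-κB) and TGANTCA (bound by AP-1). RefSeq windows of 300 bases were found for 8 of the 10 genes, with Ctsb and Ctsh unmatched. TCACGTG was present in 2 of the 8, Ctsa and Ctsd, against 3.77% of 32851 windows. The palindrome TCACGTGA was found in both, at position -99 in Ctsd and at -13 and 4 in Ctsa, with the first transcribed base as 0. CACGTG was present in 4 of the 8 (Ctsa, Ctsd, Ctsf and Ctsl), against 7.15%, TCANGTGA in 3, against 4.18%, and GGGCGG in 5, against 35.7%. Ctss held the IRF element at position -21, a motif found in 3.44% of windows. Ctsc held TTCNNNGAA at position -236, found in 8.3% of windows, and Ctsc and Ctss each held GAGGAAGT, found in 3.2%. The κB site, searched in a strict form found in 0.411% of windows, and TGANTCA, found in 7.81%, were in none of the 8. At these shares, absence from 8 genes does not set the cathepsins apart, and looser forms of the κB site were not searched. A match is a description of the letters only.

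Per length, Ctsd and Ctsb were the leading cathepsin transcripts and Ctsk the lowest in every group. In untreated cultures of experiment 1, Ctsd stood at 693 ± 70.2 RPKM (SD, n = 3) and Ctsb at 398 ± 37.1. Ctss followed with 227 ± 29, then Ctsz with 136 ± 5.84 and Ctsl with 78.9 ± 3.4. Ctsc, at 15.2 ± 1.08, ranked 9 of 10. Across the 9 groups Ctsb had the narrowest range, 398 to 552 RPKM (1.39-fold), and Ctsc the widest, 15.2 to 164 (10.8-fold). Ctsd ranged from 398 to 1120, Ctss from 193 to 340 and Ctsz from 136 to 348. Ctsf, Ctsh and Ctsk stayed at or below 47.8 RPKM in each group. The 10 genes together took between 0.562% and 0.906% of a library's counts.

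**Figure D1:**
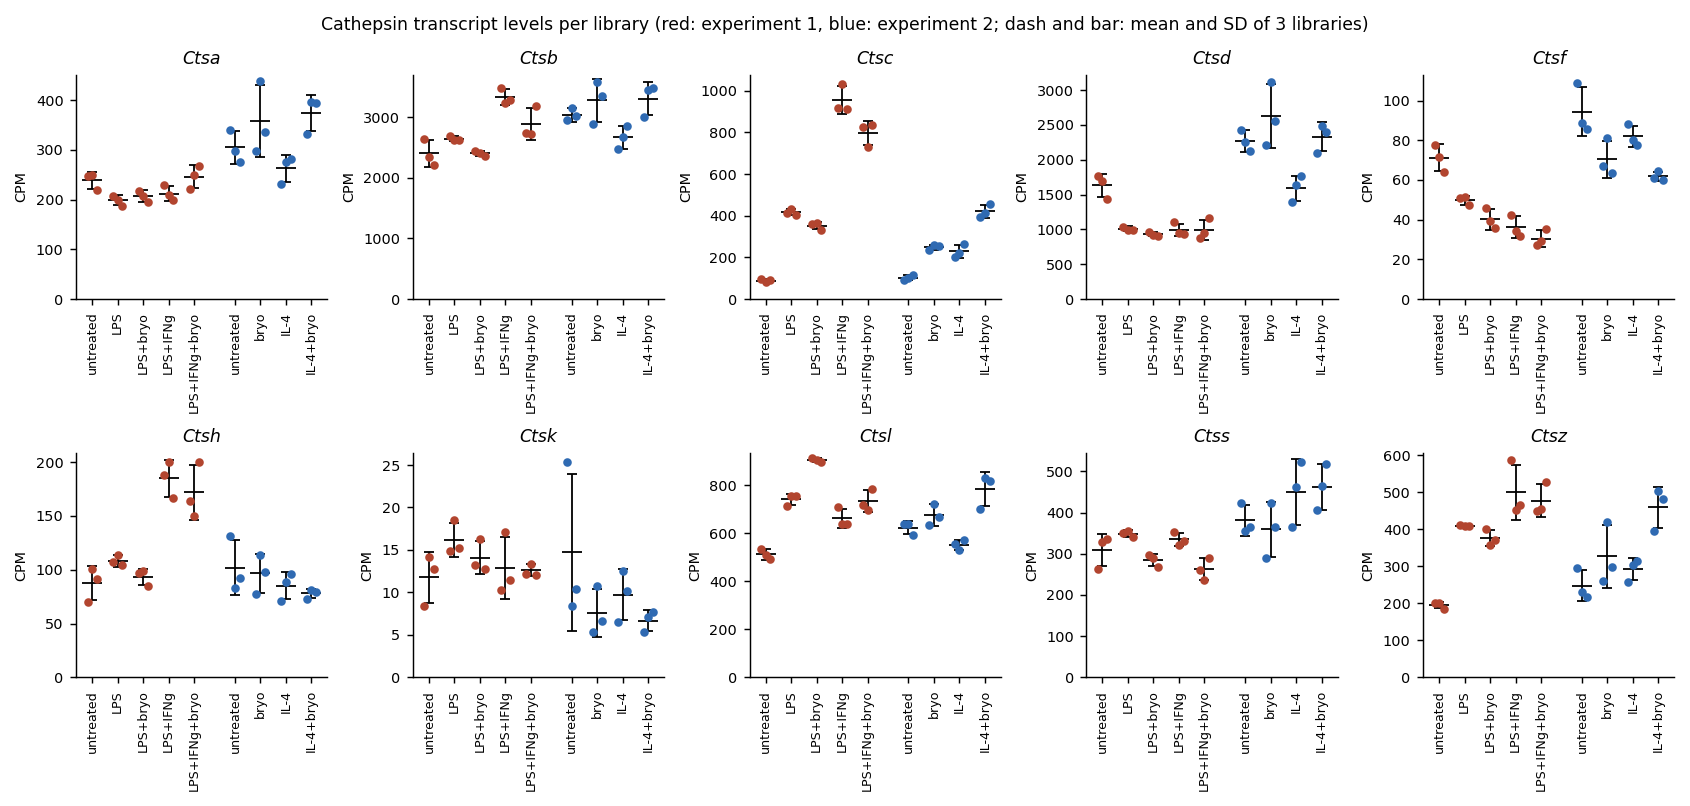
CPM of each cathepsin in each of the 27 libraries (points), with the mean and SD of the 3 libraries of a group (dash and bar), experiment 1 in red and experiment 2 in blue. Ctsc spans 81.9 to 1030 CPM, whereas Ctsb stays between 2220 and 3590.

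The make-up of the cathepsin transcripts shifted with treatment. Ctsd held 41.6% ± 1.92 (SD, n = 3) of the summed RPKM of the 10 genes in untreated cultures of experiment 1, 25.3% ± 0.536 with LPS and 21.7% ± 0.531 with LPS and IFNγ. Ctsc held 0.919% ± 0.0818, 4.23% ± 0.127 and 8.48% ± 0.949 in the same groups. Ctsz held 8.18%, 16.7% and 17.8%. In experiment 2 the share of Ctsd was 44.3% ± 0.416 in untreated cultures, 45.8% ± 0.689 with bryostatin, 35.7% ± 0.338 with IL-4 and 39.3% ± 0.658 with both. That of Ctsc was 0.813% ± 0.151, 1.78% ± 0.196, 2.07% ± 0.101 and 2.88% ± 0.18. Ctsb kept between 21.7% and 28.4% in the groups named here.

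**Figure D2:**
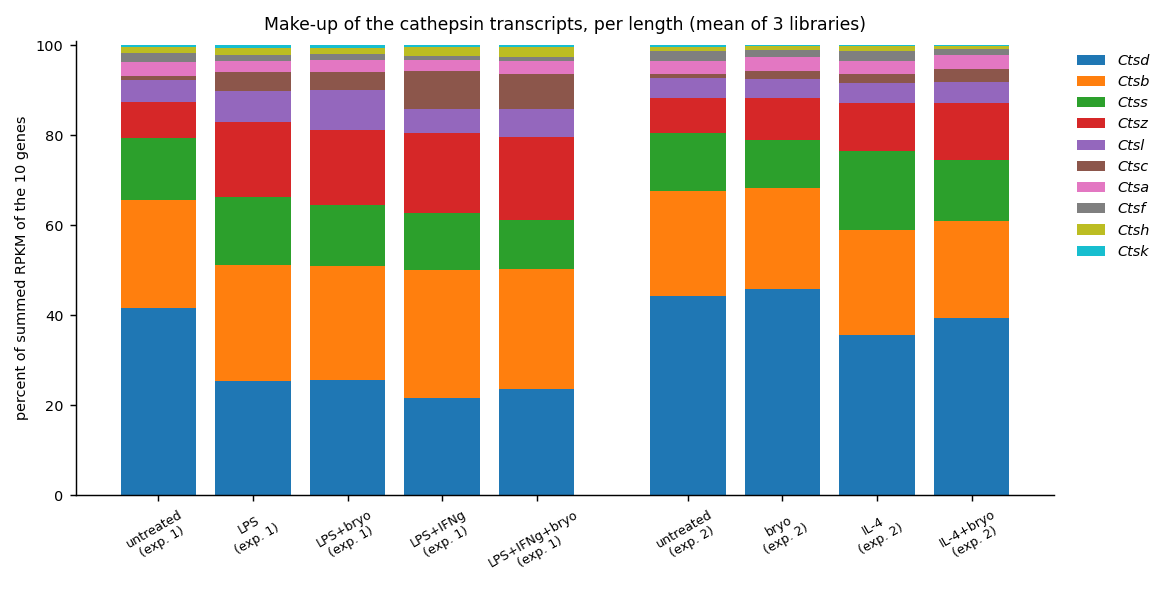
Stacked bars of each gene's percent of the summed RPKM of the 10 cathepsins in each group (mean of 3 libraries). Ctsd falls from 41.6% in untreated cultures to 21.7% with LPS and IFNγ, while Ctsc goes from 0.919% to 8.48%.

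LPS moved the cathepsins in both directions. Ctsc, Ctsz and Ctsl rose, Ctsd, Ctsf and Ctsa fell, and Ctsb, Ctsh, Ctsk and Ctss did not pass the test. That is 6 of 10 called, where 38.4% of the 16073 genes tested were called (19.5% higher and 18.8% lower). The groups did not overlap for 9 of the 10, against 50.8% of all genes. The median log2 fold change was 0.24 for the 10 genes and -0.01 for all genes. Ctsc, the dipeptidyl peptidase that activates serine proteases of granules by trimming their ends, was at 94.4, 81.9 and 89.4 CPM in untreated libraries and at 414, 431 and 404 with LPS. Each LPS library lay above each untreated one, 4.7-fold by the fit (log2 fold change 2.23 ± 0.09, adjusted p = 4.02e-12). Ctsz, a carboxypeptidase also known as cathepsin X, went from 200, 201 and 186 to 411, 408 and 408 CPM (1.06 ± 0.10, adjusted p = 2.38e-07). Ctsl, a general endopeptidase of the lysosome, went from 536, 508 and 492 to 715, 754 and 754 CPM (0.53 ± 0.07, adjusted p = 2.09e-05).

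Ctsd, the aspartic protease that degrades much of the lysosome's protein load, was at 1760, 1690 and 1440 CPM in untreated libraries and at 1040, 990 and 988 with LPS. The groups did not overlap, and the fall was 38.2% of the untreated level (-0.69 ± 0.10, adjusted p = 5.78e-05). Ctsf, a cysteine protease with an unusually long propeptide, went from 77.7, 71.6 and 64 to 50.7, 51.6 and 47.2 CPM (-0.51 ± 0.12, adjusted p = 0.00305). Ctsa fell by less (-0.27 ± 0.09, adjusted p = 0.0222), and its call was lost without LPS replicate 3 (adjusted p = 0.0811) or untreated replicate 2 (0.0616). Without both untreated libraries labelled replicate 1, 7 cathepsins were called: Ctsb was added at 0.22 (adjusted p = 0.0314), Ctsc stood at 2.28 and Ctsd at -0.63. Without untreated replicate 2, Ctsh (0.42, adjusted p = 0.0227) and Ctsk (0.6, adjusted p = 0.0392) passed the test.

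IFNγ on top of LPS raised Ctsc further and brought Ctsh and Ctsb up. Against LPS alone, 5 of 10 cathepsins were called, 4 higher and 1 lower, where 36% of all genes were called (19.2% higher and 16.8% lower). Groups were fully separate for 6 of 10, against 52.3% of all genes. Ctsc reached 919, 1030 and 914 CPM, all above the LPS libraries (1.20 ± 0.08, adjusted p = 1.65e-08). Ctsh, an aminopeptidase, was at 107, 114 and 104 CPM with LPS and at 188, 200 and 167 with LPS and IFNγ, without overlap (0.77 ± 0.13, adjusted p = 1.77e-04). Ctsb, which cuts both inside proteins and at their ends, rose from 2700, 2620 and 2630 to 3490, 3240 and 3290 CPM (0.33 ± 0.09, adjusted p = 0.0063). Ctsf fell again, to 42.4, 34.3 and 32 CPM (-0.46 ± 0.12, adjusted p = 0.0083, or 0.0506 without LPS+IFNγ replicate 3). Ctsz was called higher (0.29 ± 0.10, adjusted p = 0.0262), with replicate 1 at 587 CPM and the others at 452 and 465. The Ctsz call was lost without any single LPS library (adjusted p = 0.0654 to 0.069) and without LPS+IFNγ replicate 1, where the value was 0.17 (adjusted p = 0.146). Ctsl was at -0.16 and passed the test without LPS+IFNγ replicate 1 (-0.21, adjusted p = 0.0429), and Ctsk without LPS+IFNγ replicate 2 (-0.58, adjusted p = 0.0339).

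Against untreated cultures, LPS with IFNγ gave 7 of 10 cathepsins called, where 58.1% of all genes were called (29.5% higher and 28.6% lower). The same 7 were those whose groups did not overlap, against 58.3% of all genes. Ctsc was 10.8-fold higher (3.43 ± 0.09, adjusted p = 1.78e-14), the widest change among the 10. Ctsz (1.36), Ctsh (1.08), Ctsb (0.47) and Ctsl (0.37) were also higher, and Ctsd (-0.71) and Ctsf (-0.97) lower. Ctsd did not differ detectably between LPS with IFNγ and LPS alone (-0.02, interval -0.24 to 0.2). The 7 calls held without both untreated libraries labelled replicate 1, with Ctsc at 3.48.

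Ctss, an endopeptidase that stays active near neutral pH, did not pass the test in any of these comparisons. It was at 263, 328 and 335 CPM in untreated libraries, 350, 356 and 340 with LPS and 352, 322 and 330 with LPS and IFNγ. The difference from untreated was 0.18 with LPS (95% interval -0.02 to 0.38) and 0.12 with LPS and IFNγ (-0.08 to 0.32). The class II genes that Ctss serves behaved otherwise. With LPS and IFNγ against untreated cultures 8 of 8 were higher, where 29.5% of all genes were. Cd74, the invariant chain, was at 3.21 CPM in untreated cultures and 708 with LPS and IFNγ, and H2-Ab1 at 1.54 and 322. The summed level of 12 microglial markers went the other way, from 1540 to 1770 CPM in untreated libraries to 1060 to 1160 with LPS and 783 to 892 with LPS and IFNγ. Of these 12, 7 were lower and 4 higher with LPS, where 18.8% of all genes were lower and 19.5% higher. The border macrophage marker sum (Mrc1, Cd163, Lyve1 and Pf4) was 37.1 to 43.9 CPM in untreated libraries, 14.9 to 18.5 with LPS and 1.29 to 2.5 with LPS and IFNγ, while Ctsc rose over the same groups. The part of both sums in the cathepsin values was not tested.

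**Figure D3:**
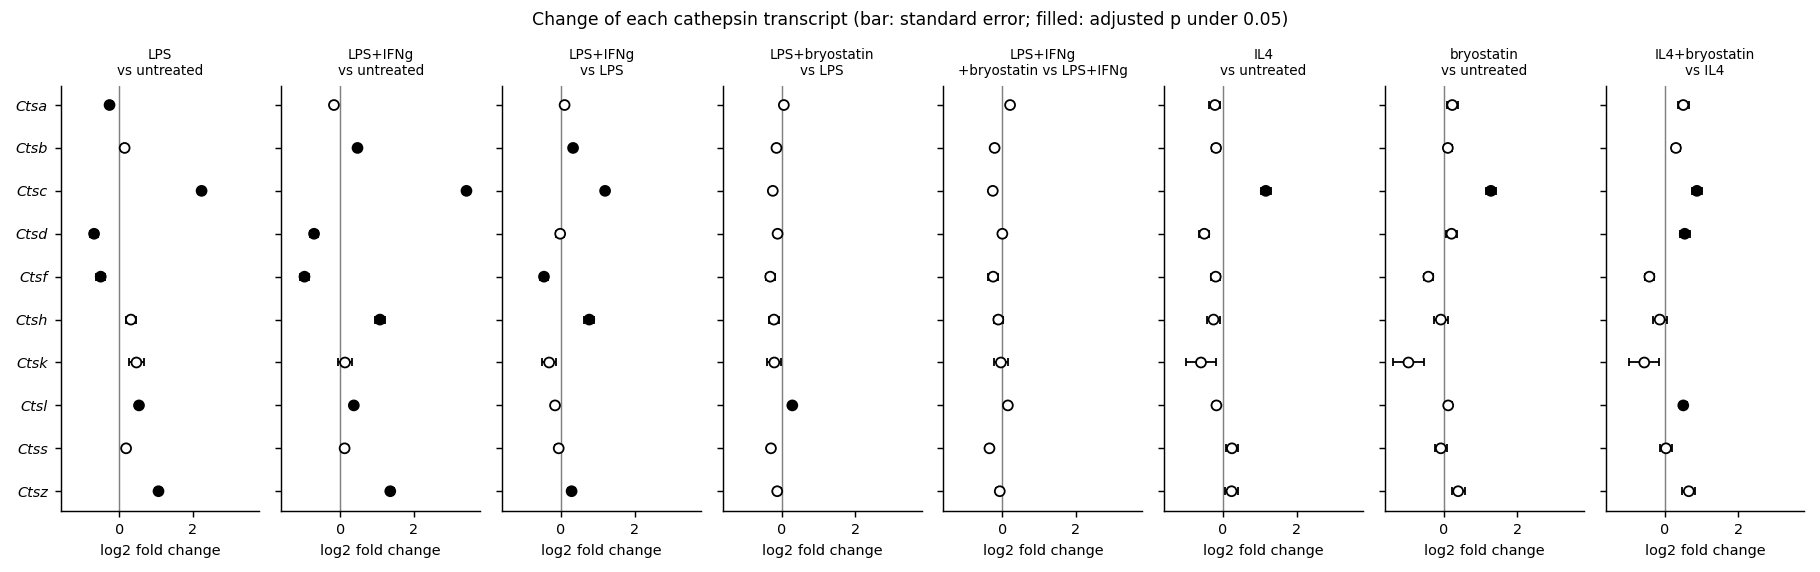
Log2 fold change with its standard error for each cathepsin in the 8 pairs of groups, filled where the adjusted p is under 0.05. Ctsc is filled in 6 of the 8 panels, all to the right of 0, while Ctsk and Ctss are open in all 8.

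IL-4 raised Ctsc alone among the 10. Ctsc was at 89, 102 and 115 CPM in untreated libraries of experiment 2 and at 200, 222 and 264 with IL-4, without overlap (1.16 ± 0.13, adjusted p = 7.62e-04). That is 1 of 10 called, where 0.583% of 15604 genes were called (0.5% higher and 0.0833% lower). Non-overlapping groups were seen for 4 of 10, against 23.4% of all genes. Ctsd was at 2430, 2250 and 2120 CPM in untreated libraries and at 1400, 1630 and 1760 with IL-4. The groups did not overlap, but the difference did not pass the test (-0.51 ± 0.14, adjusted p = 0.227), whereas DESeq2 called it (adjusted p = 0.0443). Without both untreated libraries labelled replicate 1, Ctsc was at 1.07 and remained the 1 cathepsin called. The summed level of 4 border macrophage markers was 45 to 59.9 CPM in untreated libraries and 109 to 180 with IL-4, without overlap. Mrc1, the mannose receptor, held most of that sum, with means of 36.3 and 138 CPM, whereas Cd163 was at 0.392 and 1.2 and Lyve1 did not pass the filter on low counts. The microglial marker sum was 1840 to 2290 CPM in untreated libraries and 1490 to 2100 with IL-4. The part of these markers in the Ctsc value was not tested.

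Bryostatin alone also raised Ctsc, and the other 9 did not pass the test. Ctsc stood at 233, 257 and 253 CPM (1.28 ± 0.13, adjusted p = 6.03e-04), where 3.62% of genes were called (2.11% higher and 1.51% lower). Groups were fully separate for Ctsc and Ctsf, 2 of 10, against 18.4% of all genes. With only the 6 libraries of these groups in the fit the estimate was 1.28 and the adjusted p 0.0619, a fit that called 9 genes in all. Ctsf was at 109, 88.7 and 85.9 CPM in untreated libraries and at 66.8, 81.1 and 63.4 with bryostatin (-0.42 ± 0.12, adjusted p = 0.0804), and passed the test without bryostatin replicate 2 (-0.53, adjusted p = 0.03). Bryostatin replicate 2 held the highest level of its group for all 10 genes. Without both untreated libraries labelled replicate 1, Ctsc was at 1.17 and called. The border macrophage marker sum was 113, 136 and 145 CPM with bryostatin, above each untreated library, and Mrc1 and Pf4 were called higher. The microglial marker sum, 1790 to 2620 CPM, overlapped that of untreated libraries. Their part in the Ctsc value was not tested.

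Bryostatin on top of IL-4 gave the most calls among its 4 settings. Ctsc, Ctsl and Ctsd were higher, 3 of 10 called, where 4.13% of genes were called (2.7% higher and 1.42% lower). Ctsc reached 395, 413 and 454 CPM, above each library with IL-4 alone (0.88 ± 0.13, adjusted p = 0.0039). Ctsl went from 553, 528 and 570 to 701, 830 and 815 CPM (0.51 ± 0.10, adjusted p = 0.0142). Ctsd went from 1400, 1630 and 1760 to 2090, 2490 and 2400 CPM (0.55 ± 0.14, adjusted p = 0.0497). Leaving out any 1 of the 6 libraries ended the Ctsd call (adjusted p = 0.0763 to 0.216), and leaving out 4 of the 6 in turn (IL-4 replicate 1 or 2, IL-4 with bryostatin replicate 2 or 3) ended that of Ctsl (0.0697 to 0.0834). The groups also did not overlap for Ctsa, Ctsb, Ctsf and Ctsz, so for 7 of 10 against 36.7% of all genes. Ctsz (0.66, adjusted p = 0.0751) and Ctsa (0.51, adjusted p = 0.0966) missed the test here and were called by DESeq2 (adjusted p = 0.0136 and 0.0263). The microglial marker sum was 1490 to 2100 CPM with IL-4 and 2090 to 2630 with IL-4 and bryostatin. The border macrophage marker sum was 109 to 180 CPM with IL-4 and 328 to 483 with both, without overlap, and Mrc1 went from a mean of 138 to 378 CPM. The part of both sums in these values was not tested. The difference between bryostatin's effect with and without IL-4 was called for 0 of 10 cathepsins and for 0% of genes (0 of 15604, with 327 at an unadjusted p under 0.05 and 4 called by DESeq2). It was -0.40 ± 0.18 for Ctsc and 0.39 ± 0.14 for Ctsl. Without both untreated libraries labelled replicate 1 it was -0.30 ± 0.17 and 0.38 ± 0.13, with 0 cathepsins and 0 genes called.

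With LPS present, no rise of Ctsc with bryostatin was seen. Added to LPS, it raised Ctsl from 715, 754 and 754 to 913, 904 and 897 CPM (0.29 ± 0.07, adjusted p = 0.0239), the 1 cathepsin of 10 called, where 6.89% of genes were called (3.35% higher and 3.55% lower). Leaving out any of the 6 libraries ended that call (adjusted p = 0.063 to 0.111). Ctsc was at 359, 366 and 331 CPM against 414, 431 and 404 without bryostatin, and Ctss at 296, 289 and 268 against 350, 356 and 340. Neither pair of groups overlapped, and neither passed the test (Ctsc -0.24, adjusted p = 0.0948, and Ctss -0.29, adjusted p = 0.0785). DESeq2 called both lower (adjusted p = 0.0292 and 0.0344). The microglial marker sum was 1160, 1060 and 1100 CPM with LPS and 872, 809 and 776 with bryostatin added, without overlap, and 6 of the 12 markers were lower. The summed class II level was 65.3 to 73.2 CPM with LPS and 26.1 to 29.1 with bryostatin added. The border macrophage marker sum was 14.9 to 18.5 CPM with LPS and 26.2 to 32.8 with bryostatin added, without overlap, while Ctsc did not rise. The part of these sums in the Ctsc and Ctss values was not tested. The groups did not overlap for 8 of 10 cathepsins, against 35.2% of all genes.

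Added to LPS and IFNγ, bryostatin gave 0 of 10 cathepsins called by edgeR, where 1.8% of genes were higher and 1.58% lower (3.38% in all). An unadjusted p under 0.05 was found for 2447 genes. Ctss was at 260, 237 and 290 CPM against 352, 322 and 330 (-0.35 ± 0.09, adjusted p = 0.0544), without overlap. Its adjusted p was 0.044 without LPS+IFNγ+bryostatin replicate 3. Ctsc was at 826, 730 and 836 CPM against 919, 1030 and 914 (-0.26 ± 0.08, adjusted p = 0.105), also without overlap. Such separation was seen for 3 of 10 cathepsins, Ctsb being the other, and for 20.4% of all genes. DESeq2 called both lower (adjusted p = 0.0162 for Ctss and 0.036 for Ctsc). In these libraries Cd74 was at 457 CPM with bryostatin and 708 without, and 6 of the 8 class II genes were lower. The microglial marker sum was 622 to 787 CPM with bryostatin and 783 to 892 without, so its ranges overlapped. The part of those markers in the Ctss value was not tested. Bryostatin's effect differed between LPS with IFNγ and LPS alone for 0 of 10 cathepsins and 0.118% of genes. In a test added after these values were seen, its mean effect in experiment 2 exceeded that in experiment 1 for 4 of 10 cathepsins, Ctsc, Ctsz, Ctsd and Ctsb, where 5.92% of genes were called, and LPS and the experiment cannot be told apart.

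**Figure D4:**
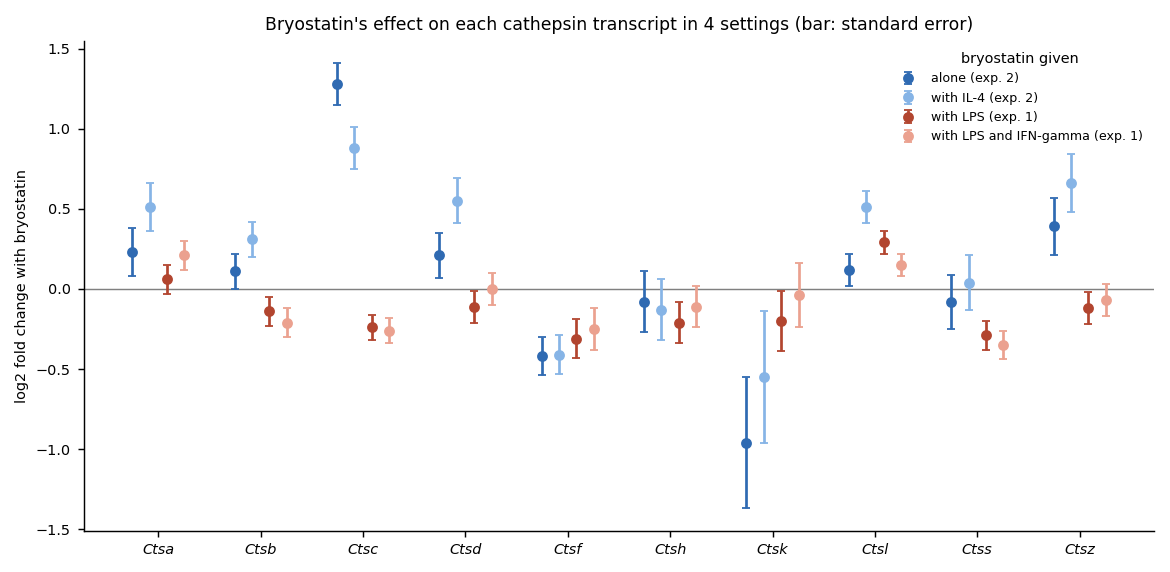
Log2 fold change with bryostatin and its standard error for each cathepsin, given alone, with IL-4, with LPS, and with LPS and IFNγ. For Ctsc the values are 1.28, 0.88, -0.24 and -0.26, and Ctsf lies below 0 in all 4 settings.

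In order of level in experiment 1, Ctsc stepped from untreated through LPS with bryostatin, LPS, and LPS with IFNγ and bryostatin to LPS with IFNγ. The neighbours LPS with bryostatin and LPS differed by 0.24 (adjusted p = 0.0948), and the top pair by 0.26 (adjusted p = 0.105), so neither passed the test. The steps from untreated to LPS with bryostatin (1.99, adjusted p = 1.74e-11) and from LPS to LPS with IFNγ and bryostatin (0.94, adjusted p = 2.06e-07) did. For Ctsd all neighbours among the 4 LPS groups overlapped, and the untreated group stood above them. Over the 8 pairs of groups, Ctsc was called higher in 6, Ctsl in 4, Ctsz in 3, Ctsb and Ctsh in 2 each. Ctsf was called lower in 3, Ctsa lower in 1, and Ctsd lower in 2 and higher in 1. Ctsk and Ctss were called in 0 of 8.

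Ctsk, a collagen-degrading protease best known from osteoclasts, was the least abundant member at 5.28 to 25.4 CPM. In untreated libraries of experiment 2 it was at 25.4, 8.44 and 10.4 CPM, the high value being replicate 1, the library that stood apart. Bryostatin alone gave -0.96 ± 0.41 for Ctsk with that library and -0.33 ± 0.32 without both untreated libraries labelled replicate 1, and neither was called. The summed level of 6 fibroblast and mural cell markers was 3160, 1500 and 1680 CPM in the same 3 libraries, and its part in the Ctsk value was not tested. Ctsk and Ctss are neighbours on chromosome 3, with 17423 bases and 0 annotated genes between them. Over the 15 libraries of experiment 1, the genes most like Ctsk by Pearson r of log2 CPM were Six2 (0.928) and Col1a1 (0.927), and those most like Ctss were Col11a2 (0.895) and Hopx (0.873).

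**Figure D5:**
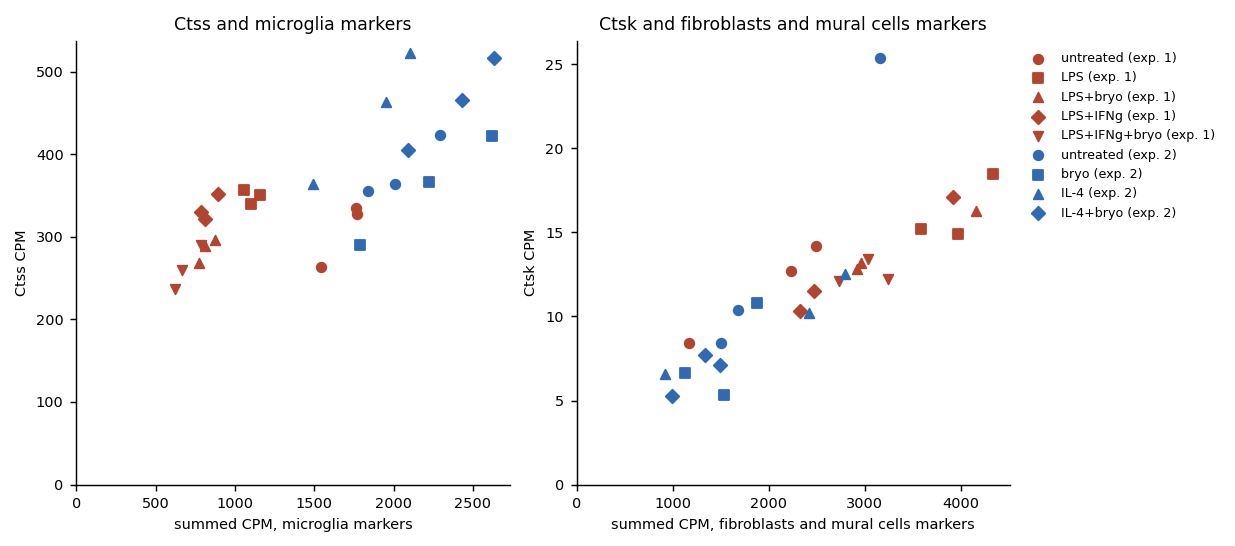
Left, Ctss CPM against the summed CPM of 12 microglial markers, and right, Ctsk CPM against the summed CPM of 6 fibroblast and mural cell markers, 1 point per library, experiment 1 in red and experiment 2 in blue. The untreated library at 25.4 CPM of Ctsk has a marker sum of 3160.

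Among the other members, the genes most like Ctsc were Heatr9 (0.998) and Ccl8 (0.995), over the same 15 libraries. These libraries fall into 5 groups that differ in treatment, and r was taken across the groups. Those most like Ctsz were Fth1 (0.99) and Ogfr (0.988), like Ctsh Pycard (0.978) and Tpst1 (0.977), and like Ctsl Odc1 (0.974) and Akr1b8 (0.966). Ctsf was most like Emc2 (0.981) and Gpx1 (0.98), Ctsd like Tbxas1 (0.964), Ctsb like Hmgcs1 (0.946), and Ctsa like Tgfb1i1 (0.9) and Cox4i1 (0.893). Among the 45 pairs of cathepsins, 20 correlations were negative in experiment 1 and 15 in experiment 2. The highest in experiment 1 was Ctsc with Ctsz (0.96) and the lowest Ctsc with Ctsf (-0.87). These values describe the libraries and carry no test.

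The inhibitors and partners of the cathepsins were measured in the same libraries. Of 4 cystatins and stefins tested, Cstb and Cst7 were higher and Cst3 and Cst6 lower with LPS, where 19.5% of all genes were higher and 18.8% lower. Cstb, a cytosolic stefin, was at 57.5 CPM in untreated cultures, 107 with LPS and 211 with LPS and IFNγ. Cst7, cystatin F, which acts on Ctsc, was at 3.09, 5.43 and 21.6 CPM, and in experiment 2 at 3.61 in untreated cultures, 14.5 with IL-4 and 30.3 with IL-4 and bryostatin. Both steps of Cst7 in experiment 2 were called (2.00, adjusted p = 0.00117, and 1.06, adjusted p = 0.0197). Cst3, the secreted cystatin C, fell from 2640 to 2070 CPM with LPS (-0.35, adjusted p = 0.027). Elane and Mpo, which with Ctsg belong to the neutrophil granule, and Ctsg itself were at 0 counts in all libraries. Prtn3, a protease of the same list as Elane, and the neutrophil marker S100a8 were near the floor but not 0. Summed over the 3 libraries of a group, Prtn3 held 4 to 17 counts and S100a8 3 to 48. Of the remaining cathepsins, 2 of 13 passed the filter: Ctso fell from 123 to 86.4 CPM with LPS and to 64.6 with LPS and IFNγ, and Ctse from 2.82 to 0.189 with LPS.

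Other lysosomal genes did not move as 1 block. With LPS, 6 of 43 hydrolases and activators were higher and 17 lower, where 19.5% of all genes were higher and 18.8% lower. Among them was Lipa, the acid lipase, going from 123 to 60.8 CPM. With LPS and IFNγ against untreated, 20 were higher and 17 lower, where 29.5% of all genes were higher and 28.6% lower, with Gla, the alpha-galactosidase, from 14.4 to 62.8 CPM. For the proton pump of the lysosome, 16 of 20 V-ATPase subunits were higher and 1 lower than with LPS alone, where 19.2% of all genes were higher and 16.8% lower. With LPS against untreated, 4 of the 20 were higher and 2 lower, where the shares of all genes were 19.5% and 18.8%, and the pair of comparisons, which share the LPS libraries, were not tested against each other. Atp6v1b2 was at 160 CPM with LPS and 367 with IFNγ added (1.20, adjusted p = 2.26e-09). Of the sorting genes, M6pr, a mannose 6-phosphate receptor, went from 195 to 282 and 415 CPM, and Sort1 from 311 to 141 and 110. Among the MiT/TFE factors, Tfeb was at 25.5 CPM in untreated cultures, 18.3 with LPS (-0.48, adjusted p = 0.00331) and 18.8 with LPS and IFNγ. In experiment 2, 0 of 43 hydrolases were called with IL-4, where 0.583% of all genes were called. When bryostatin was added to IL-4, 8 were higher and 1 lower, where 2.7% of all genes were higher and 1.42% lower. Naaa fell with bryostatin in both of its settings there (-1.07, adjusted p = 0.00242 alone, and -0.90, adjusted p = 0.00467 with IL-4), and Tfec, a factor of myeloid cells, rose (1.55, adjusted p = 0.0379 alone, from 9.93 to 28.2 CPM, adjusted p = 0.0203, with IL-4).

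On mm10, the build of the files, the genes are spread over 7 chromosomes. Ctsa lies at chr2:164832873-164841032 (plus), Ctsz at chr2:174427493-174439039 (minus), Ctsk at chr3:95499256-95509362 (plus) and Ctss at chr3:95526786-95556403 (plus). Ctsc lies at chr7:88278085-88310888 (plus), Ctsd at chr7:142375911-142388038 (minus), Ctsh at chr9:90054152-90076089 (plus) and Ctsl at chr13:64359337-64370890 (minus). Ctsb lies at chr14:63122462-63145923 (plus) and Ctsf at chr19:4855129-4860912 (plus). All 10 are annotated as protein coding. The libraries were unstranded, and expressed genes on the opposite strand overlap Ctsa (Pltp, by 1515 bases, and Neurl2, by 584), Ctsb (Fdft1, by 774) and Ctsz (Nelfcd, by 10), so reads in the overlaps cannot be assigned by strand. On the same strand, Gm49369, annotated as protein coding, overlaps Ctsd by 6757 bases and held 0 counts in all libraries. Processed pseudogenes overlap Ctsl (Gm49230, by 395 bases, 0 counts) and Ctss (Hmgb1-ps5, by 557 bases, 0 to 7 counts). The values here do not show how reads in these overlaps were counted.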

How the data were processed

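Per the labels' protocols, unstranded poly(A) libraries were prepared from mixed glia, and per the submitters' processing notes fastp, STAR and featureCounts were used with mm10, whose versions no source used here states. The deposited table holds the authors' raw read counts per gene, 1 column per library. The deposited gene length (in bases) was used for RPKM. The authors' FPKM values were not used.

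Each experiment was fitted on its own with edgeR 4.0.16 (R 4.3.3): filterByExpr by group, TMM factors, robust quasi-likelihood fit, and Benjamini-Hochberg adjustment over all genes tested, with a threshold of 0.05. The 95% intervals use the t quantile of the fit. Correlations used log2 CPM with a prior count of 2. Of the 8 pairs of groups and 2 differences of effects, all are reported. A further difference, between experiments, was added after values were seen and fitted on all 27 libraries.

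The members and lists were chosen with earlier results of these data known. All 10 members were named, with at most 4 called genes of the largest change from each other list, any other cathepsin, inhibitor or MiT/TFE factor, and the 2 genes most like each member with a mean of at least 5 CPM; H2-Ab1, Sort1, M6pr, Neurl2, Pltp, Fdft1 and Nelfcd follow from that rule or from position. Some genes that the rule names are not reported here. The code was tested on simulated data. Same-numbered replicates did not deviate together over all groups, so no pairing was used, though they did in some pairs of groups. Alternatives were DESeq2 1.42.0, DESeq2 size factors, no filter, other sets of libraries, blocking on replicate number and single libraries left out in turn. No 2 replicates agreed within sampling noise. With 3 libraries against 3, an exact permutation test cannot go below 0.1, so none is given.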

Additional observations from a re-analysis of the deposited data

Results flagged for a closer look

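Bryostatin's effect differed between the experiments for 4 of the 10 cathepsins, in a test chosen after the values were seen that subtracted the mean effect of the LPS settings from that of the settings of experiment 2. By edgeR's quasi-likelihood test over 16647 genes, of which 5.92% were called, the difference on the log2 scale was 1.34 ± 0.10 for Ctsc (adjusted p = 5.42e-08), 0.63 ± 0.15 for Ctsz (adjusted p = 0.00931), 0.44 ± 0.12 for Ctsd (adjusted p = 0.0313) and 0.39 ± 0.09 for Ctsb (adjusted p = 0.0109). Ctsc is the case with the plainest library values: with bryostatin all 3 libraries were above their comparison group in both settings of experiment 2 and below it in both LPS settings. The Ctsd call ended in 9 of the 24 fits that left out 1 library (adjusted p = 0.0529 to 0.0661). Without both untreated libraries labelled replicate 1, the values were 1.29 for Ctsc, 0.69 for Ctsz, 0.46 for Ctsd and 0.37 for Ctsb, and all 4 stayed called (largest adjusted p = 0.018). The presence of LPS and the experiment cannot be told apart, since no culture of experiment 2 received LPS and bryostatin was not given without LPS in experiment 1.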

How the results depend on the processing

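Of 1660 refits of single cathepsins, 1587 kept their side of the threshold, 37 lost the call, 36 gained it and 0 called values turned. Among the 1587, 51 uncalled values changed sign. Counts of cathepsins called moved as follows. With DESeq2 they were 3 (LPS+bryostatin vs LPS), 2 (LPS+IFNγ+bryostatin vs LPS+IFNγ), 2 (IL-4), 2 (bryostatin) and 6 (IL-4+bryostatin vs IL-4), and without a filter 0 and 1 for the first pair of these. With all 27 libraries in 1 fit they were 2 (IL-4), 2 (bryostatin) and 7 (IL-4+bryostatin), and with only the compared groups 5 (LPS+bryostatin), 0 (bryostatin) and 7 (IL-4+bryostatin). Genes called of all tested were, with DESeq2, 879 (LPS+IFNγ+bryostatin), 223 (IL-4), 1337 (bryostatin), 1213 (IL-4+bryostatin), 95 and 4 (the differences of bryostatin's effect by IFNγ and by IL-4), against 543, 91, 565, 644, 19 and 0. The difference by IFNγ gave 55 without a filter, 7 with all 27 libraries and 112 with only its groups. All 27 libraries gave 224 (IL-4), 1548 (bryostatin), 1325 (IL-4+bryostatin) and 5 (difference by IL-4), and only the compared groups 3354 (LPS+bryostatin, against 1108), 41 (IL-4), 9 (bryostatin) and 2703 (IL-4+bryostatin). Without both untreated libraries labelled replicate 1, the difference between experiments gave 1510 genes against 985. The causes were not tested.

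Leaving out 1 library gave these ranges of cathepsins and genes called: LPS 5 to 7 and 5100 to 7032, LPS+IFNγ 7 to 7 and 8454 to 9997, LPS+IFNγ vs LPS 4 to 6 and 4631 to 5239, LPS+bryostatin 0 to 0 and 588 to 689, LPS+IFNγ+bryostatin 0 to 1 and 242 to 434, IL-4 1 to 1 and 66 to 96, bryostatin 1 to 2 and 188 to 824, IL-4+bryostatin 1 to 2 and 172 to 371. The differences gave 0 to 0 and 4 to 19 (IFNγ), 0 to 0 and 0 to 0 (IL-4), and 3 to 4 and 783 to 1113 (between experiments). Same-numbered replicates correlated at -0.28 to 0.3 in experiment 1 and -0.5 to 0.53 in experiment 2, so the numbers do not pair the libraries throughout. Values over 0.1 were found for 3 of 30 same-numbered pairs and 5 of 60 others in experiment 1. In experiment 2 they were found for 6 of 18 and 10 of 36. Bryostatin and IL-4+bryostatin gave 0.43, 0.53 and 0.16 for same numbers. With the replicate block, Ctsk passed the test with LPS (0.47, adjusted p = 0.0168) and Ctsd did not with IL-4+bryostatin (0.55, adjusted p = 0.0514). With 3 libraries a group, the smallest cathepsin change called was -0.27 on the log2 scale.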
